A study of Mus musculus with 6 samples.

Results

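Expression of 10 genes of glucose uptake and glycolysis was examined in mouse aortic valves: the glucose transporters Slc2a1 and Slc2a4, the hexokinases Hk1 and Hk2, the phosphofructokinases Pfkm and Pfkp, the aldolase Aldoa, the pyruvate kinase Pkm and the lactate dehydrogenases Ldha and Ldhb. They were taken by gene symbol from the 46983 genes of the table, and every symbol was found. The study compared valves of wild type C57BL/6J mice during growth, at postnatal day 2 (PND2), with valves of adult mice at 4 months, with 3 RNA-sequencing libraries at each age. Each library came from a pool of 5 to 6 mice, so no library describes a single animal, and the libraries of an age are labelled as biological replicates. The mice of both ages were untreated, and the valves were dissected so as to leave as little heart muscle attached as possible.

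Glucose enters cells through carriers of the Slc2a family and is trapped by phosphorylation by a hexokinase. Phosphofructokinase then commits the sugar to glycolysis, aldolase splits it into triose phosphates, pyruvate kinase makes pyruvate, and lactate dehydrogenase interconverts pyruvate and lactate. Several steps have tissue-specific isoenzymes: Slc2a4, Hk2, Pfkm, Ldhb and the M1 form of Pkm are typical of striated muscle (Slc2a4 and Hk2 also of fat), whereas Slc2a1, Hk1, Pfkp and the M2 form of Pkm are widespread or typical of growing tissue.

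Levels are given as RPKM, which is the number of reads scaled by exonic length in kilobases and by the total of the library in units of 1e+06 reads. Library totals ran from 23810507 to 38994657, and each of the 10 genes had between 1392 and 44034 reads in every library. The lowest of their values was 13.1 RPKM, far over the minimum of 0.1 RPKM in 3 libraries that a gene needed to be tested, so all 10 were tested. Fold changes and adjusted p-values come from limma on log2(RPKM + 0.1) over the 25903 genes that passed this minimum, and a gene was called at an adjusted p under 0.05. Single values such as shares were compared with a 2-sided exact permutation test, in which the smallest p that 3 libraries an age allow is 0.1. The valve interstitial genes, which include collagens and Vcan, summed to 6747 to 7457 RPKM at PND2 and 8133 to 10262 RPKM at 4 months, so markers of the labelled tissue were present at both ages. Of these 11 genes 6 were lower at 4 months, the collagens and Vcan among them, and 2 were higher, led by Dcn, which carried the rise of the sum. Cardiomyocyte genes were also abundant, at 20213 to 22895 RPKM at PND2 and 8101 to 13017 RPKM at 4 months. In whole tissue, fewer cells of a type and less RNA per cell cannot be told apart.

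At 4 months Slc2a4, Pfkm, Pfkp and Pkm were higher than at PND2, and Hk1 and Ldha were lower. Slc2a1, Hk2, Aldoa and Ldhb were not called. The 6 called genes are 60% of the 10, against 35.8% of all genes tested. Where at least 1 RPKM in 3 libraries was required, the count was again 6, against 42.3% of all genes. The 4 higher genes stand against a background of 14.7% of genes called higher, and the 2 lower genes, a share near the background, against 21.1% called lower. Only Slc2a4 also passed a fold change over 2, which 17.2% of all genes did. These 6 genes were also the ones in which PND2 and 4 months libraries did not overlap, as in 50% of all genes tested, so the count of 6 lies close to the background by that measure. The median log2 fold change of the 10 genes was 0.33, beside -0.14 over all genes. When each library was instead scaled to its median gene, the median of all genes shifted by 0.11 to -0.02, and the split became 5 higher (Aldoa was added) and 1 lower (Hk1), because Ldha was no longer called. With any single library left out, 2 to 4 of the 10 genes were called. The count was 2 without PND2 replicate 1, without PND2 replicate 3 and without 4 months replicate 3, where 34.1, 25.4 and 24.9% of all genes were called, and Slc2a4 and Hk1 were called each time. It was also 2 of 10 without limma's trend (32.1% of all genes) and without the filter on low values (13.3%), and 0 of 10 with a per-gene unequal-variance test (13.2%). The excess of called genes over the background was therefore not kept under these settings. Without the filter, 2 of 10 stood near the background, which there takes in all 46983 genes, also those with few or no reads.

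**Figure D1:**
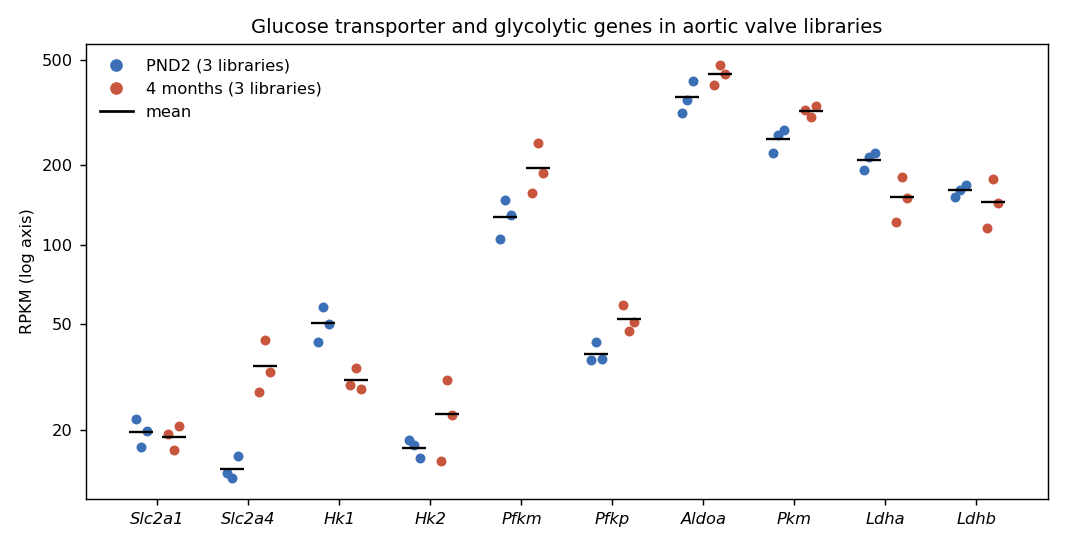
RPKM on a log axis for each of the 10 genes, with 1 point per library (3 at PND2, 3 at 4 months) and a bar at the mean. The 4 months points of Slc2a4, Pfkm, Pfkp and Pkm all lie above the PND2 points, those of Hk1 and Ldha all lie below, and the points of the other genes overlap.

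Among the transporters, the insulin-responsive carrier Slc2a4 (GLUT4; ENSMUSG00000018566, chromosome 11 of mm10 from 69942539 to 69948188) had 13.8, 13.1 and 15.9 RPKM in PND2 replicates 1 to 3. It had 27.9, 43.7 and 33.1 RPKM in the 4 months replicates. Every adult library thus lay above every neonatal one, and 4 months replicate 2 was the highest. The mean rose 2.45-fold, from 14.3 ± 1.44 (SD, n = 3) to 34.9 ± 8.06 RPKM. On the log2 scale the difference was 1.27 ± 0.17 (standard error) with a limma adjusted p of 0.00178, and without 4 months replicate 2 it was 1.09 with a limma adjusted p of 0.00328. Errors of log2 fold changes are standard errors from limma throughout. The rise ran along the whole gene, since 23 of 24 annotated exons were higher at 4 months with no overlap between the ages. Exons were described where they had at least 1 RPKM in 3 libraries, and annotated exons can overlap each other and share reads. No other gene overlaps Slc2a4 or is nearly identical to it.

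Slc2a1 (GLUT1; ENSMUSG00000028645, chromosome 4 from 119108711 to 119137983), the carrier for basal glucose uptake in most cells, had 22.1, 17.2 and 19.8 RPKM at PND2 and 19.2, 16.7 and 20.6 RPKM at 4 months. The ages overlapped fully, with means of 19.7 ± 2.43 and 18.9 ± 1.97 RPKM and a log2 fold change at -0.06 ± 0.13 (limma adjusted p = 0.757), which was 0.06 under median scaling. None of its 16 exons at that level separated the ages. The antisense gene Gm12868 covers 2.99% of the exonic bases of Slc2a1 and had 4.87 to 9.83 RPKM. Of the summed RPKM of both carriers, Slc2a4 held 38.5, 43.3 and 44.5% at PND2 and 59.2, 72.3 and 61.6% at 4 months. Slc2a4 was therefore the lesser carrier in all neonatal libraries and the greater in all adult ones, a difference of 22.3 percentage points (exact permutation p = 0.1, the smallest possible). The sum itself rose from 34.0 ± 3.14 to 53.8 ± 6.67 RPKM without overlap (exact permutation p = 0.1).

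Adipocyte genes were higher at 4 months, as Slc2a4 was. Their summed level was 180, 93.8 and 109 RPKM in the PND2 libraries and 505, 1613 and 463 RPKM in the 4 months libraries, with 8 of 10 called higher. Retn, Cidec and Lep, which mark fat cells, had no reads in any PND2 library, and Cfd, the most abundant of the list at 4 months, went from 0.0118 to 448 RPKM. The 4 months library with most adipocyte signal, replicate 2, was also the highest in Slc2a4. Replicate 1 had more adipocyte signal than replicate 3 but less Slc2a4. Macrophage and smooth muscle genes, given below, also rose between the ages. The cardiomyocyte genes went the other way between the ages, with 7 of 15 called lower and only Ckmt2 called higher, yet they too were highest among the adult libraries in replicate 2. The part of any of these cell types in the values of Slc2a4 was not tested.

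Of the hexokinases Hk1 and Hk2 only Hk1 was called. Hk1 (ENSMUSG00000037012, chromosome 10 from 62268855 to 62379908), the widespread form bound to mitochondria, had 42.9, 58.2 and 50.3 RPKM at PND2 and 29.6, 34.3 and 28.5 RPKM at 4 months. All adult libraries lay below all neonatal ones. The mean fell from 50.4 ± 7.66 to 30.8 ± 3.10 RPKM, which is 0.611 of its PND2 level (log2 fold change -0.70 ± 0.14, limma adjusted p = 0.00692). With any library left out, its limma adjusted p lay between 0.00502 and 0.0309. The fall was found in every single exon of the 29 at the required level, each without overlap between the ages. The antisense gene Hk1os covers 1.84% of the exonic bases of Hk1 and had at most 0.842 RPKM.

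Hk2 (ENSMUSG00000000628, chromosome 6 from 82725025 to 82774454), the insulin-inducible form of muscle and fat, had 18.3, 17.4 and 15.6 RPKM at PND2 and 15.2, 30.9 and 22.8 RPKM at 4 months. The adult values spread widely, from below all PND2 libraries to well above them. The means were 17.1 ± 1.36 and 23.0 ± 7.87 RPKM, and the log2 fold change of 0.36 ± 0.24 was not called (limma adjusted p = 0.281). Without 4 months replicate 1, the lowest of the adult libraries, it was 0.63 and called (limma adjusted p = 0.0313), and without 4 months replicate 2, the highest, it was 0.12 (limma adjusted p = 0.679). Of the summed RPKM of Hk1 and Hk2, Hk2 held 29.9, 23.1 and 23.7% at PND2 and 33.9, 47.4 and 44.4% at 4 months. The share was thus higher in every adult library, by 16.3 percentage points on average (exact permutation p = 0.1), although Hk2 itself was not called. The sum of both hexokinases, 67.6 ± 7.37 RPKM at PND2 and 53.8 ± 10.5 RPKM at 4 months, overlapped between the ages (exact permutation p = 0.2).

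Both phosphofructokinase genes of the set rose. Pfkm (ENSMUSG00000033065, chromosome 15 from 98092589 to 98132447), the muscle form, had 105, 148 and 130 RPKM at PND2 and 157, 243 and 187 RPKM at 4 months. The ages did not overlap, although the highest PND2 library and the lowest 4 months library stood close together. Its mean rose 1.53-fold, from 128 ± 21.4 to 196 ± 43.7 RPKM (log2 fold change 0.61 ± 0.19, limma adjusted p = 0.0415). The call was lost without PND2 replicate 1 (limma adjusted p = 0.104), PND2 replicate 3 (0.092), 4 months replicate 2 (0.0968) or 4 months replicate 3 (0.0942). Of its 24 exons, 16 were higher at 4 months without overlap.

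Pfkp (ENSMUSG00000021196, chromosome 13 from 6579768 to 6648777), the platelet form that is found in many tissues, had 36.6, 42.8 and 36.9 RPKM at PND2 and 59.5, 47.4 and 51.1 RPKM at 4 months. Here 4 months replicate 1, the lowest adult library for Pfkm, was the highest. The mean rose 1.36-fold, from 38.7 ± 3.51 to 52.7 ± 6.19 RPKM (log2 fold change 0.44 ± 0.12, limma adjusted p = 0.0247). The call was lost without PND2 replicate 1 (limma adjusted p = 0.058), PND2 replicate 3 (0.0847), 4 months replicate 1 (0.0676) or 4 months replicate 3 (0.0635). Pitrm1 lies on the opposite strand over 3.96% of its exonic bases at 35.4 to 53.3 RPKM, and no source states if reads were counted by strand. Pfkl, the liver form, was close to level, with a log2 fold change of only 0.06 (adjusted p by limma 0.769). The RPKM of the 3 forms summed to 197 ± 27.2 at PND2 and 280.0 ± 41.6 at 4 months without overlap, 1.42-fold higher (exact permutation p = 0.1). The share of Pfkm in that sum, 63.0, 67.0 and 64.3% at PND2 and 64.4, 74.7 and 69.1% at 4 months, overlapped (exact permutation p = 0.2).

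**Figure D2:**
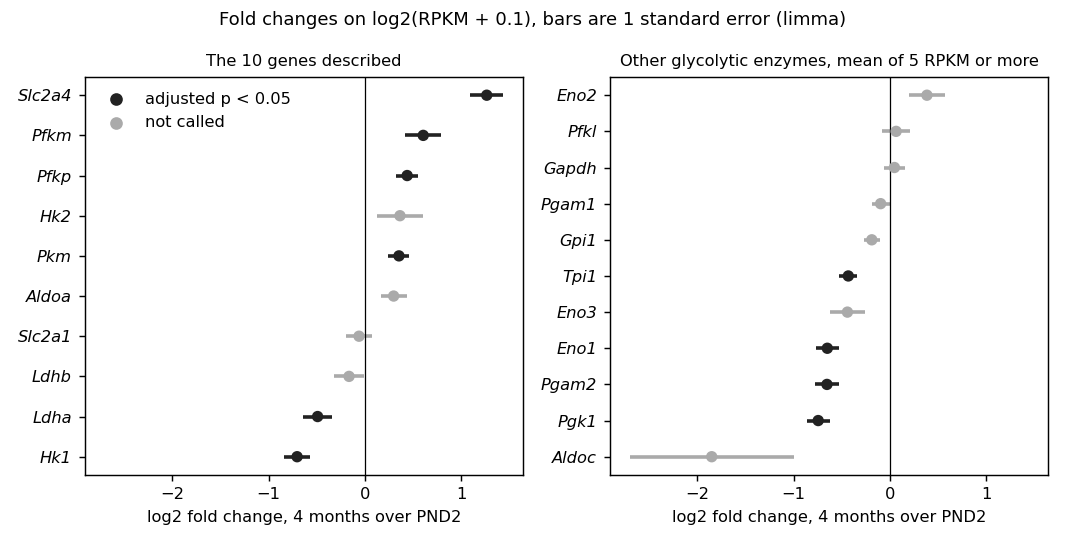
Log2 fold change of 4 months over PND2 with 1 standard error from limma, for the 10 genes (left) and for the other glycolytic enzymes with a mean of at least 5 RPKM at either age (right). Black points passed an adjusted p of 0.05: 4 to the right of 0 and 2 to the left among the 10 genes, and 4 to the left (Tpi1, Eno1, Pgam2, Pgk1) with none to the right among the other enzymes shown.

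Aldoa (ENSMUSG00000030695, chromosome 7 from 126795234 to 126800751), which encodes the aldolase of muscle and most other cells, had the highest level of the set, with 315, 352 and 416 RPKM at PND2 and 403, 480 and 444 RPKM at 4 months. A single PND2 library, replicate 3, reached into the adult range. The means were 361 ± 51.0 and 442 ± 38.5 RPKM, and the log2 fold change of 0.30 ± 0.14 (limma adjusted p = 0.128) was not called, but it was called under median scaling, at 0.42 (limma adjusted p = 0.0434). Of its 34 annotated exons 30 did not separate the ages. The other 4 were all higher at 4 months, and all lay in the upstream part of the gene. They were singled out after their values were seen, so they are given without a test.

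The most upstream of these exons (chromosome 7 from 126800288 to 126800447, 160 bases) begins exactly at a RefSeq start site. It had 10.7, 25.2 and 22.2 RPKM at PND2 and 86.8, 72.7 and 75.4 RPKM at 4 months, a 4.04-fold difference of means. This start therefore stood at 2.11, 4.09 and 3.13% of the median Aldoa exon in the neonatal libraries and at 12.8, 8.97 and 10.6% in the adult ones. The next upstream exon, from 126800002 to 126800046, went from 23.9, 80.8 and 81.3 RPKM to 126, 214 and 155 RPKM. By contrast, the exon at a downstream start, from 126799045 to 126799254, had 253, 363 and 438 RPKM at PND2 and 311, 409 and 366 RPKM at 4 months, which overlap. The window of the upstream start is shown because the difference between the ages was found there. It is the RefSeq sequence of GRCm38.p6 (chr7:126800398-126800697, minus strand), with the bases transcribed into the exon in capitals.
Aldoa upstream start: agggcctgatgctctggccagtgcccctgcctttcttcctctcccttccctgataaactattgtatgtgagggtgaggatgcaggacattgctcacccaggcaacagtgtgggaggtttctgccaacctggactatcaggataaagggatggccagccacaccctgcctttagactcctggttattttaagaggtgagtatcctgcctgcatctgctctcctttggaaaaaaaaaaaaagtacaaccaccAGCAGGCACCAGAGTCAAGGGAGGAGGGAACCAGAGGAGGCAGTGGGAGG

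Pkm (ENSMUSG00000032294, chromosome 9 from 59656368 to 59679375), which encodes the pyruvate kinase of muscle and most other cells, had 223, 259 and 272 RPKM at PND2 and 323, 304 and 335 RPKM at 4 months. All adult libraries were higher. The mean rose 1.27-fold, from 252 ± 25.4 to 321 ± 15.6 RPKM (log2 fold change 0.35 ± 0.11, limma adjusted p = 0.0403). This call was lost whichever library was left out, at limma adjusted p of 0.0529 (without 4 months replicate 2) to 0.13 (without 4 months replicate 3). Reads of Pkm may also be shared with the processed pseudogene Gm6560, which is 98.4% identical over 1593 bases and was listed at 174 to 244 RPKM.

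Pkm makes its M1 and M2 forms by including either of a pair of neighbouring exons of the same length. M1 is the form of differentiated muscle and M2 that of many growing tissues. Both exons have 167 bases and share 103 of them at the same position (61.7%). They are shown, from the reference transcripts of GRCm38 (mm10) on the plus strand, because the exon table counts them apart; capitals mark the 64 positions at which they differ.
M1 exon, chr9:59675029-59675195: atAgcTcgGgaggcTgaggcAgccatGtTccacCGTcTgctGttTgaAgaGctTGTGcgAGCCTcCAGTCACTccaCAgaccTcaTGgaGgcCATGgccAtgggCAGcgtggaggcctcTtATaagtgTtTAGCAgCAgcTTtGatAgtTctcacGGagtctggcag
M2 exon, chr9:59675568-59675734: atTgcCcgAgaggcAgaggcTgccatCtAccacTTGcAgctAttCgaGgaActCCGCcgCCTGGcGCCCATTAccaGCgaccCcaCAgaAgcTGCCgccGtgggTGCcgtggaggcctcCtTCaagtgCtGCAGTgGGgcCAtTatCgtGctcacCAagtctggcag

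The M1 exon had 193, 208 and 223 RPKM at PND2 and 280, 250 and 294 RPKM at 4 months, higher in every adult library. The M2 exon had 73.6, 108 and 111 RPKM at PND2 and 118, 70.7 and 93.9 RPKM at 4 months, with full overlap. As a share of the reads on both exons, M1 held 72.4, 65.9 and 66.7% at PND2 and 70.4, 78.0 and 75.8% at 4 months. M1 thus held the greater share in all 6 libraries, and the ages overlapped because PND2 replicate 1 lay above 4 months replicate 1 (means 68.4 ± 3.52 and 74.7 ± 3.90%, exact permutation p = 0.2). The 95% Wilson interval of a single library, which covers counting error only, spanned 70.2 to 74.4% for PND2 replicate 1 and 68.6 to 72.2% for 4 months replicate 1. The pseudogene Gm6560 matches the M2 exon at 155 of 167 bases and the M1 exon at 96 of 167, so it resembles M2 more closely, and its part in the reads of M2 was not tested. Of all 12 exons of Pkm, 10 were higher at 4 months without overlap.

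**Figure D3:**
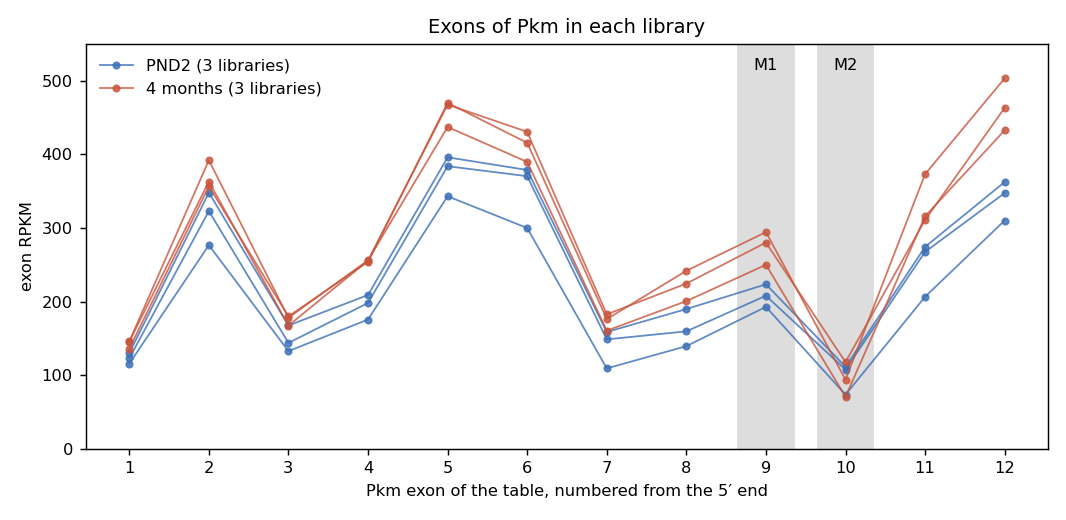
RPKM of the 12 exons of Pkm in order from the 5′ end, with 1 line per library and the M1 and M2 exons shaded. At exon M1 the 3 adult lines (250 to 294 RPKM) lie above the 3 PND2 lines (193 to 223 RPKM), whereas at exon M2 the lines of the ages are mixed.

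Of the lactate dehydrogenases, Ldha (ENSMUSG00000063229, chromosome 7 from 46841475 to 46855627), the form that dominates in glycolytic muscle, had 192, 216 and 222 RPKM at PND2 and 122, 181 and 150 RPKM at 4 months. All adult libraries were lower, with replicate 2 nearest to the neonatal range. The mean fell from 210 ± 15.4 to 151 ± 29.6 RPKM, to 0.720 of its PND2 level (log2 fold change -0.49 ± 0.15, limma adjusted p = 0.041). Under median scaling the difference was -0.37 and not called (limma adjusted p = 0.125). The call was also lost without each of the PND2 replicates (limma adjusted p of 0.0507, 0.102 and 0.121 for replicates 1 to 3), 4 months replicate 1 (0.0878) or 4 months replicate 3 (0.103). Of its 20 exons at the required level, 11 were lower at 4 months without overlap and 2 weakly covered ones, at no more than 5.72 RPKM in any library, were higher. The pseudogenes Gm11814 and Gm5987 share over 95% of the aligned bases with Ldha and were listed at 30.3 to 56.8 and 16.3 to 30.4 RPKM.

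Ldhb (ENSMUSG00000030246, chromosome 6 from 142490249 to 142507957), the form that dominates in heart muscle, had 152, 162 and 169 RPKM at PND2 and 116, 177 and 144 RPKM at 4 months. The ages overlapped, and the highest and the lowest value were both adult. The means were 161 ± 8.60 and 145 ± 30.9 RPKM (log2 fold change -0.16 ± 0.16, limma adjusted p = 0.455), and none of its 11 exons separated the ages. The pseudogene Gm5514, nearly identical over 1002 aligned bases (98.0%), was listed at 140 to 205 RPKM, so the level of Ldhb is uncertain. The share of Ldhb in the RPKM of both genes was 44.1, 42.8 and 43.2% at PND2 and 48.6, 49.4 and 48.9% at 4 months. This share varied little within an age and was higher in every adult library, by 5.62 percentage points (SD 0.633 and 0.409, exact permutation p = 0.1). The summed level, 371 ± 23.8 and 297 ± 60.4 RPKM, overlapped between the ages (exact permutation p = 0.2).

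**Figure D4:**
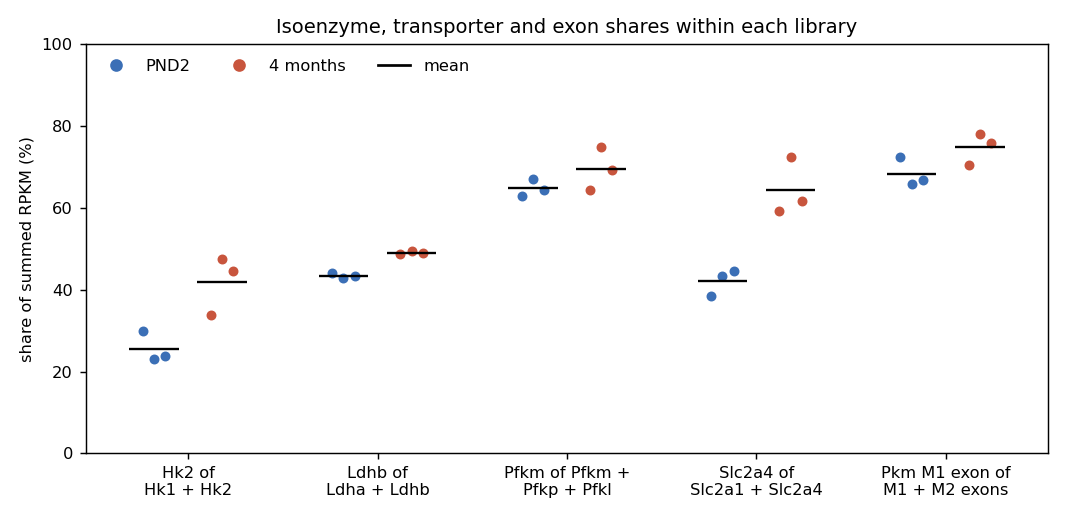
Share in percent of one isoenzyme, carrier or exon within its pair or group, with 1 point per library (PND2 and 4 months) and a bar at the mean; the axis runs from 0 to 100. Hk2, Ldhb and Slc2a4 held higher shares in all adult libraries (means 41.9, 49.0 and 64.4% against 25.6, 43.4 and 42.1%), while the shares of Pfkm and of the Pkm M1 exon overlapped between the ages.

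The promoters of the set were searched for the core letters of the hypoxia response element, ACGTG or GCGTG on either strand, since glycolytic genes are known targets of the hypoxia-inducible factors. RefSeq windows from 250 bases before to 50 after a start were found for 9 of the 10 genes, all but Slc2a4. At least 1 match was present in 13 of their 17 windows, against 43.8% of all 32851 windows, and each of the 9 genes had a window with a match. Windows of a gene can overlap and hold the same match, as in Aldoa and Pfkm, so the windows are not independent. The share of all genes with a match in any window was not computed. The Ldha window, shown because it held most matches, had 7 (matches on opposite strands can overlap), followed by an Hk1 window with 5. A Pfkp window held 4 and a Pfkm window 3, so windows with several matches were found in genes called lower and in genes called higher. The exon at the start of that Pfkm window had at most 3.55 RPKM, or 2.56% of the median Pfkm exon, in any library. The Ldha window is chr7:46845554-46845853 on the plus strand of GRCm38.p6, with the matches in capitals.
Ldha: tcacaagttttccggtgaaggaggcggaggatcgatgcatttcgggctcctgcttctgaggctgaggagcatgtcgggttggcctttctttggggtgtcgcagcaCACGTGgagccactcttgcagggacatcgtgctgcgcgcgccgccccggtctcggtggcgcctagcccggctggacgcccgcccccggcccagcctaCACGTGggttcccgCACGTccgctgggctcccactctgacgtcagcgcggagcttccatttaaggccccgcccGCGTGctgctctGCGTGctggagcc

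In order of level per length, Aldoa stood first and Pkm next at both ages. At PND2 they were followed by Ldha, Ldhb, Pfkm, Hk1 and Pfkp, each with a range that did not overlap that of its neighbour, and then by Slc2a1, Hk2 and Slc2a4, whose neighbouring ranges overlapped. At 4 months Pfkm, Ldha and Ldhb came next with overlapping ranges, then Pfkp, and then Slc2a4, Hk1, Hk2 and Slc2a1, again with overlapping neighbours. The clearest changes of place were those of Slc2a4, from the lowest mean of the 10 to the highest of the last 4, and of Hk1, which went from above Pfkp to below it. Summed over all 10 genes, the level was 1251 ± 117 RPKM at PND2 and 1416 ± 143 RPKM at 4 months, with overlap (exact permutation p = 0.3).

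The adult libraries differed among themselves, and part of the 10 genes had the same order of them. In 7 of the 10 genes (Slc2a4, Hk1, Hk2, Pfkm, Aldoa, Ldha and Ldhb) replicate 2 was the highest adult library, and in 6 of these (all but Hk1) replicate 1 was the lowest. The share of all genes with such an order was not computed, so these counts have no background beside them. Slc2a1, Pfkp and Pkm were instead lowest in replicate 2. The summed cardiomyocyte genes had this order too, with 8101, 13017 and 8671 RPKM in replicates 1 to 3, and so did erythroid genes, with 751, 2159 and 1410 RPKM (none of 7 tested was called between the ages). Smooth muscle genes, led by Acta2 and Tagln, had the reverse order, with 28093, 16987 and 20301 RPKM, and at PND2 they ranged from 7454 to 8618 RPKM, with 7 of 8 called higher at 4 months. The part of these cell types in the values of the 10 genes was not tested. Other lists changed between the ages as well: macrophage genes rose (8 of 10 called, 326 to 375 against 1056 to 1151 RPKM), whereas all 9 endothelial genes (507 to 694 against 273 to 284 RPKM) and all 10 mitotic genes (58.8 to 109 against 11.2 to 12.1 RPKM) fell. Of 7 skeletal muscle genes tested 3 were lower, and their sum was 302 to 509 RPKM at PND2 and below 302 RPKM in each adult library. Nearly all of that sum was Acta1 (means of 372 and 208 RPKM), which overlapped between the ages and was not called. The next gene, Tnnt3, had means of 5.38 and 2.45 RPKM.

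**Figure D5:**
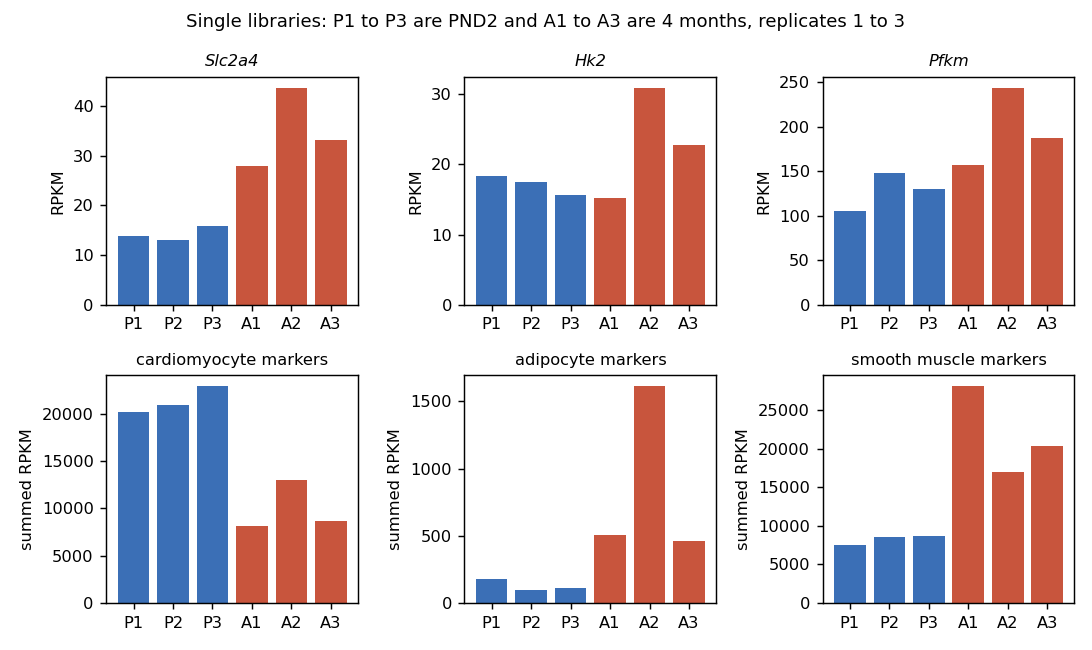
RPKM of Slc2a4, Hk2 and Pfkm (top) and summed RPKM of cardiomyocyte, adipocyte and smooth muscle genes (bottom) in each library, with bars from 0; P1 to P3 are the PND2 replicates and A1 to A3 the 4 months replicates. In the adult libraries A2 is highest for the 3 genes and for the cardiomyocyte (13017 RPKM) and adipocyte (1613 RPKM) sums and lowest for the smooth muscle sum (16987 RPKM).

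Among the other enzymes of the pathway, 14 of 16 were tested, 4 were lower and 1 was higher at 4 months, and their median log2 fold change of -0.14 was that of all genes. The share called, 35.7%, was also that of all genes (35.8%). Tpi1, which interconverts the triose phosphates, fell from 182 ± 14.7 to 135 ± 4.34 RPKM. Pgk1, which makes ATP in the payoff phase, fell from 78.3 ± 8.13 to 46.7 ± 5.13 RPKM, or by 0.74 on the log2 scale (limma adjusted p = 0.00322). The muscle mutase Pgam2 fell from 214 ± 21.4 to 137 ± 15.8 RPKM and the enolase Eno1 from 56.8 ± 7.87 to 36.0 ± 1.81 RPKM (limma adjusted p of 0.00646 and 0.00582). Gapdh had a log2 fold change near 0 (0.05, limma adjusted p = 0.764), and Gpi1, at -0.19, was not called (limma adjusted p = 0.117). The only enzyme called higher, named after its values were seen, was the low-level hexokinase Hk3, which went from 0.718 to 1.47 RPKM (limma adjusted p = 0.0466). Of 10 further glucose transporters 9 were tested, and only Slc2a3 was called (also named after its values were seen), at 2.72 RPKM at PND2 and 0.550 of that at 4 months (limma adjusted p = 0.0253). Pklr, the pyruvate kinase of liver and red cells, had no reads in any library.

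Genes around glycolysis moved in both directions. Over the 8 lists outside the 10 genes, 97 of 103 genes were tested, with 24 called higher, 22 lower and a median log2 fold change of 0.09. That is 47.4% called, against 35.8% of all genes. Where at least 1 RPKM in 3 libraries was required, 45 of these genes and 42.3% of all genes were called. With the per-gene unequal-variance test 14 of the 97 were called, against 13.2% of all genes. By list, the share called by limma ran from 11.1% of the tested glucose transporters to 66.7% of the gluconeogenic genes. Among regulators of glycolytic flux 5 of 16 rose and 5 fell (62.5% called). The largest fall was that of Hif3a, a hypoxia-inducible factor subunit, from 20.9 ± 6.58 to 0.670 ± 0.253 RPKM (limma adjusted p = 9.1e-05). Ppargc1a and Myc fell by 1.39 and 1.17 on the log2 scale. Epas1, another subunit, rose from 37.6 ± 4.65 to 94.2 ± 4.17 RPKM (limma adjusted p = 2.3e-04), and Mlxipl, a glucose-sensing factor, and Pfkfb3, which makes the activator of phosphofructokinase, had log2 fold changes of 2.20 and 0.97. Hif1a, a further subunit named after its values were seen, fell from 59.0 ± 4.80 to 43.6 ± 3.38 RPKM (limma adjusted p = 0.0157).

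Of 14 genes of insulin-regulated uptake, which includes the traffic of Slc2a4 vesicles, 5 rose and 3 fell (57.1% called). The adaptor Irs2 rose from 4.52 ± 0.268 to 11.5 ± 1.24 RPKM (limma adjusted p = 5.5e-04), and the vesicle protein Vamp2, the sorting receptor Sort1 and the kinase Akt2 had log2 fold changes of 0.65, 0.57 and 0.50. The tether Aspscr1, which holds Slc2a4 vesicles inside the cell, went down from 25.3 ± 2.17 to 14.0 ± 1.11 RPKM (limma adjusted p = 0.00155), and Akt1 fell by 0.73 on the log2 scale. In lactate and pyruvate handling, 5 of 17 tested genes rose and 4 fell (52.9% called). Pdp2, Slc16a7 and Ldhd had log2 fold changes of 1.69, 1.24 and 0.97, whereas the lactate carrier Slc16a1 fell by 0.83 and the pyruvate dehydrogenase kinases Pdk3 and Pdk1 fell by 0.74 and 0.69. The more abundant kinases Pdk4 and Pdk2 (67.6 and 48.5 RPKM at PND2, named after their values were seen) were not called. Their log2 fold changes were 0.52 and 0.21. The testis form Ldhc had no reads in any library.

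In the pentose phosphate pathway, which branches from the product of hexokinase, 3 of 8 genes rose and 1 fell (4 called in all). Its entry enzyme G6pdx rose from 14.1 ± 1.89 to 30.2 ± 1.68 RPKM (limma adjusted p = 8.1e-04), with Tkt and Taldo1 at log2 fold changes of 0.70 and 0.37 and Pgls at -0.62. Of 13 glycogen genes tested, 4 fell and 1 rose, or 38.5% called, near the background. The glycogen primer Gyg fell from 152 ± 14.7 to 47.2 ± 7.30 RPKM (limma adjusted p = 1.9e-04), Gys1, Gbe1 and Pgm1 fell by 1.03, 0.78 and 0.77 on the log2 scale, and Phkg1 rose from 3.67 ± 0.415 to 19.3 ± 3.53 RPKM. In gluconeogenesis 4 of 6 tested genes were called, all higher. Pck1, an enzyme also used by fat cells, went from 0.0899 to 42.1 ± 22.3 RPKM, G6pc3 had a log2 fold change of 0.44, and Pcx had 9.33, 72.7 and 12.8 RPKM in the 4 months replicates against a mean of 2.67 at PND2, so most of its mean came from replicate 2. The remaining gene was Fbp2, with a log2 fold change of 2.13 from 0.330 RPKM at PND2, named after its values were seen.

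Among the 14215 tested genes with a mean of at least 5 RPKM, those whose log2 values followed a gene of the set most closely over the 6 libraries were Txlnb, mt-Tm and Acad12 for Slc2a4 (Pearson's r of 0.997, 0.996 and 0.995). For Hk1 they were Mcmbp, Wipi1 and Qpctl (0.997, 0.996 and 0.996). For Pfkm they were Pygm, the muscle glycogen phosphorylase, Kcnk3 and Bicd2 (0.991, 0.990 and 0.987). Slc2a4, Hk1 and Pfkm were taken because their absolute log2 fold changes were the largest of the set. A common cutoff just under the 0.987 of Bicd2 was passed by 46 genes for Slc2a4 and 102 for Hk1. For Pfkm only the 3 named genes passed it. The 6 points of each correlation share their libraries and fall into 2 ages. A high value can thus describe a like difference between the ages, a like order of libraries within an age, or both. Pygm overlapped between the ages and was not called (log2 fold change 0.43, limma adjusted p = 0.0878).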

How the data were processed

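Aortic valve RNA from 6 pools of mice was sequenced as paired 50 nt reads. After trimming, the authors used TopHat for alignment to mm10 and easyRNASeq for counting on the Ensembl annotation (TopHat 2.1.0 and R 3.2.2 in the submitters' processing notes). The deposited RPKM values per gene and per exon were the starting point. Multiplied by length and library total they gave whole reads for 100% of gene values of up to 1000 reads (tolerance 0.01), with totals of 23810507 to 38994657. A read can count at several genes, and strand use is not stated.

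Samples were grouped by the labelled age. Genes with at least 0.1 RPKM in 3 libraries were compared with limma 3.58.1 in R 4.3.3 (eBayes with trend, 2-sided, Benjamini-Hochberg over all genes tested) on log2(RPKM + 0.1), which understates changes of low genes. Shares and sums were compared with exact permutation tests. Exons were described at 1 RPKM or more in 3 libraries. Tables and permutation tests were handled in Python 3.11.15 with pandas 2.3.3 and numpy 2.4.6, Wilson intervals in scipy 1.17.1 and plots in matplotlib 3.10.9. The fit was tested on simulated data. The alternatives were pseudocounts of 1 and 0.01, no filter, at least 1 RPKM, no trend, median scaling, quantile normalization, a replicate block, a per-gene unequal-variance test, shares before length scaling, and each library left out.

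The genes and lists were chosen with earlier results of these data known. Beside the 10 genes, those of the 8 pathway lists past the adjusted p with a mean of 5 RPKM and no overlap were named (at most 6 a list), with Gapdh, Pfkl and Gpi1. Hk3, Slc2a3, Fbp2, Hif1a, Pdk2, Pdk4 and genes whose sequence resembles or overlaps the 10 were named outside this rule. Promoters are from RefSeq and exon sequences from GENCODE transcripts of GRCm38. Replicate numbers did not pair the samples: the deviations of same-numbered libraries correlated at 0.04, -0.06 and -0.16.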

Additional observations from a re-analysis of the deposited data

How the results depend on the processing

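Of 150 values (10 genes under 15 alternatives), 106 kept direction and side of the threshold, 37 lost the call, 3 gained it and 4 turned sign. All 4 were of Slc2a1, at 0.0604 with median scaling, 0.0119 with quantile normalization and, with a library left out, -0.154 to 0.0243 (above 0 without PND2 replicate 1 or without 4 months replicate 2). Called genes of the 10 numbered 6 as reported (35.8% of all genes called), 2 without the filter on low values (13.3%) and 2 without the trend (32.1%). The count was 0 with the per-gene unequal-variance test (13.2%). With that test 4 had an unadjusted p under 0.05, and Slc2a4 and Hk1 had adjusted p of 0.0628 and 0.0693. That test called 0 with a fold change over 2, against 1 with limma, and it called 3408 of all genes, against 9273. With a library left out, 2 to 4 of the 10 genes were called, and 31 to 44 of the other pathway genes. The share of all genes called was then 24.9 to 34.1%. The other pathway genes gave 46 calls as reported (35.8% of all genes called), 30 without the filter (13.3%) and 14 with the per-gene test (13.2%). The difference in the share of Ldhb was 4.85 percentage points before length scaling, against 5.62. A replicate block gave 4 called genes, with Pfkp and Pkm lost, beside 27.7% of all genes, but the numbers do not pair the samples. Only Slc2a4 and Hk1 were called under every alternative except the per-gene test, and the calls of Pfkm, Pfkp, Pkm and Ldha were lost in 7, 8, 10 and 10 of 15. The causes of these changes were not tested. Each of the 10 genes had at least 1392 reads in a library, and 3 pooled libraries an age limit the precision.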
